A study of Drosophila melanogaster with 4 samples.

Results

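The genes described here are 9 chaperone and cochaperone genes of Drosophila melanogaster, chosen by name from the 17699 gene identifiers in the count files: Hsp83, Hop, Hsc70-4, Hsc70Cb, DnaJ-1, Droj2 and stv, whose proteins work in the cytosol, and Hsc70-5 and Hsp60A, whose proteins work in mitochondria. The annotation lists Hop as Stip1 and Hsc70Cb as Hsp110, and the other 7 under the names used here. Their mRNAs were measured by polysome-seq in whole ovaries. All libraries came from flies that carried hs-bam along with UAS-Dicer2 and a bam RNAi transgene under NosGAL4. The germline driver lowers the differentiation factor bam, Dicer-2 is supplied in excess to aid RNAi, and bam made from hs-bam upon heating releases the arrested germ cells into cysts. The 4 libraries were 2 of the polysome fraction, in which mRNAs carry several ribosomes, and 2 of the input lysate, numbered 1 and 3 in each fraction. Input and polysome flies alike were heated to 37°C for 2 h, rested for 4 h and heated for 2 h again, over 2 days, and their ovaries were taken when the flies were 3 to 5 days old. No unshocked library was analysed here, so heat-induced and constitutive mRNA of these genes cannot be told apart. The driver acts in the germline alone, the ovaries also hold somatic cells, and the study states that the exact cyst stages were not counted.

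Chaperones bind unfolded proteins and release them in cycles driven by ATP. In the cytosol, J-domain proteins such as DnaJ-1 and Droj2 hand a client to Hsc70-4, the constitutive Hsp70, nucleotide exchange factors such as Hsc70Cb and BAG-domain proteins such as stv reset Hsc70, and the adaptor Hop passes the client on to Hsp83, the fly Hsp90. In mitochondria, Hsc70-5 is the matrix Hsp70 and Hsp60A forms the chaperonin ring that works with the cofactor Hsp10. In the fly ovary, nurse cells make large amounts of Hsp83 mRNA for the egg, and the Hsc70 and Hsp90 machinery also helps to load small RNAs into Argonaute proteins. Several of these genes, among them Hsp83, DnaJ-1 and stv, are induced by heat.

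In dm6, the cytosolic members lie at 3L:3192969-3197059 (Hsp83, FBgn0001233), 2L:295122-297449 (Hop, FBgn0024352), 3R:15242687-15246614 (Hsc70-4, FBgn0266599), 3L:14037019-14043686 (Hsc70Cb, FBgn0026418), 3L:5750029-5752189 (DnaJ-1, FBgn0263106), 3R:13382106-13385283 (Droj2, FBgn0038145) and 3L:13477541-13483515 (stv, FBgn0086708). The mitochondrial members lie at 2R:14252598-14256192 (Hsc70-5, FBgn0001220) and X:11108482-11112308 (Hsp60A, FBgn0015245). DnaJ-1 and Hsc70-5 are on the minus strand and the other 7 on the plus strand, and all counts cover whole genes, summed over exons.

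Gene counts totalled 10646651 to 22647905 a library. Reads that named no gene made up 10.8% and 33.9% of reads in polysomes 1 and 3. In inputs 1 and 3 they made up 42.6% and 33.2%, so by this measure polysome 1 differed most. The 9 mRNAs had 3442 to 172944 counts each, so that counting error was at most 1.70% of any value. Levels are given as CPM, counts scaled to library size with TMM factors, which compares libraries, or as TPM, which also divides by exon length and compares genes. Polysome 3 stood apart: its log2(CPM + 1) values correlated with those of the other libraries at 0.851 to 0.859 across genes, which are not independent replicates, against 0.914 to 0.922 among the others. Markers of several cell types moved with it. Of the 12 follicle and eggshell markers, 12 had a higher and 0 a lower fitted level in polysomes. They summed to 8888 and 14932 CPM in polysomes 1 and 3 and to 5659 and 5305 CPM in inputs 1 and 3. The sums hide that chorion genes differed most in polysome 3. Cp36 was at 51.8 and 886 CPM in polysomes 1 and 3 against 5.25 and 1.66 CPM in inputs 1 and 3. Cp38 was at 46.7 and 1325 CPM against 14.5 and 13.0 CPM. The yolk protein gene Yp3 was at 1228 and 775 CPM against 1001 and 910 CPM. The 10 muscle sheath markers, 10 of them lower in polysomes, summed to 25837 and 7767 CPM in the polysomes and 23639 and 30575 CPM in the inputs, the 4 hemocyte markers to 172 and 32.8 CPM against 157 and 162 CPM, and the 8 germline markers, 5 higher and 3 lower, to 1109.7 and 1766 CPM against 1216 and 1569 CPM. Of the 6 fat body markers, which summed to 46.2 and 119 CPM in the polysomes and 40.1 and 101 CPM in the inputs, Fbp1 and Lsp1alpha were at 0 in every library but input 3. In whole ovaries, fewer cells of a type and less RNA per cell cannot be told apart. Between fractions, neither can be told apart from a smaller share of that RNA in polysomes.

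All 9 chaperone mRNAs had a lower fitted level in polysomes than in input, and none of them passed the test. The log2 fold changes of polysome over input ran between -0.76 for DnaJ-1 and -0.06 for Hsp60A, with a median of -0.63 over the 9, -0.66 over the 7 cytosolic members and -0.23 over the 2 mitochondrial members. By edgeR 0 of the 9 were called at an adjusted p under 0.05, against 0% of the 9038 genes tested. 0 of the 9 and 4.68% of all genes had an unadjusted p under 0.05, and by DESeq2 0 of the 9 and 0.463% of all genes were called. The 9 were likewise not called with no filter, with a replicate block, without input 1 or without polysome 3, fits that called 0.952%, 0.52%, 0.0816% and 0.549% of all genes. The smallest adjusted p by edgeR was 0.956, both among the 9 and over all genes. The libraries of a fraction differed widely, with a common biological coefficient of variation of 0.706. With counts simulated at that spread for every gene, the fit did not call the changed genes. The simulation did not use the members' own spread (SE 0.40 to 0.59), so it does not give the power for them. With 2 libraries a fraction and such errors, a missing call does not show that a level was unchanged. Over all tested genes 50.2% had a fold change below 0 and the median was -0.003, but the 9 belong to the abundant mRNAs. Among 524 genes that averaged 300 CPM or more, a limit chosen after the values were seen, 77.9% had a fold change below 0 and the median was -0.33.

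The ratio to the input of the same number was lower in polysome 3 than in polysome 1 for each of the 9. Polysome 3 was below input 3 for 9 of the 9 members, against 53.6% of all tested genes, and polysome 1 below input 1 for 6 of the 9, against 48.0%. Polysome 3 had the lowest CPM of the 4 libraries for 9 of the 9 members, against 33.6% of all tested genes and 43.5% of the genes with at least 300 CPM. Both polysome libraries lay below both inputs for 5 members, Hsp83, Hop, Hsc70Cb, DnaJ-1 and Droj2, against 18.1% of all tested genes and 36.6% of those abundant genes, and both lay above both inputs for 0 of the 9, against 17.2%. Without polysome 3 the median of the 9 was -0.21 and 6 of the 9 stayed below 0, while without polysome 1 it was -0.84 with 9 below 0. Polysome 3 was also the lowest library for 8 of 10 muscle sheath markers and for 3 of 3 tested hemocyte markers, and the highest for 8 of 12 follicle and eggshell markers. The exceptions were bt and sls, lowest in polysome 1, and Vm26Ab, Yp1, Yp2 and Yp3, highest in polysome 1. The part of cell type in the chaperone values was not tested. Extraction chemistry also differed by fraction, TRIzol for input and phenol-chloroform for polysomes, and cannot be told apart from it.

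**Figure D1:**
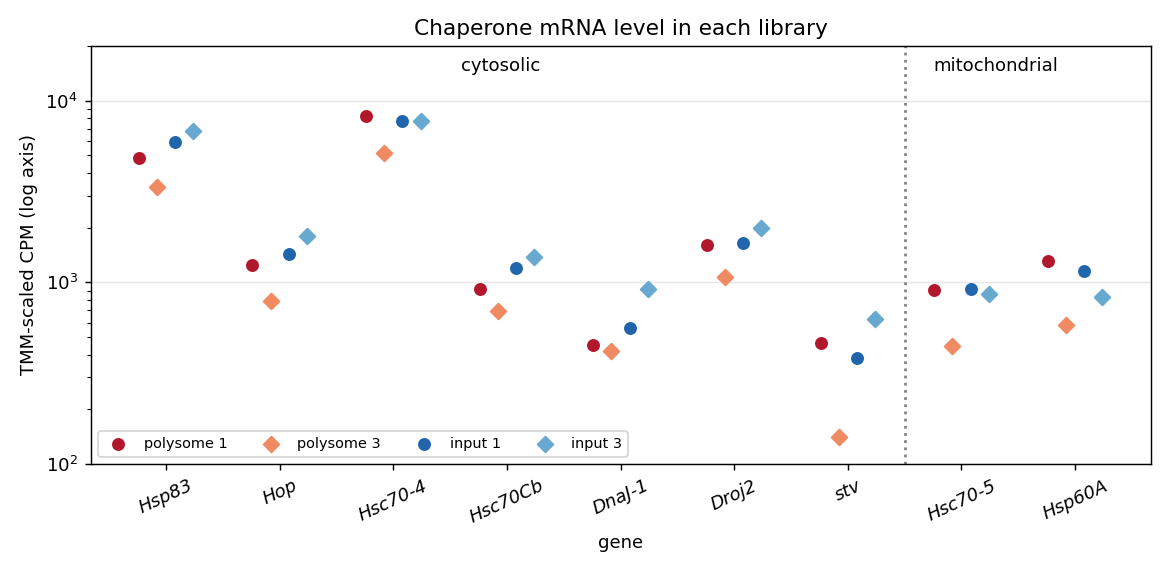
TMM-scaled CPM (log axis) of the 9 chaperone genes, 1 point per library, with polysome 1 and 3 left of input 1 and 3 and the 7 cytosolic genes left of the dotted line. Polysome 3 is the lowest point for every gene, from 142 CPM for stv to 5152 CPM for Hsc70-4, while polysome 1 lies above both inputs for Hsc70-4 and Hsp60A.

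Per length, Hsc70-4 and Hsp83 were the most abundant of the 9 mRNAs in every library. In TPM, Hsc70-4 was at 5692 and 3396 in polysomes 1 and 3 and at 4332 and 4409 in inputs 1 and 3, and Hsp83 at 3101 and 2032 in the polysomes and 3039.65 and 3587 in the inputs. Among the inputs, where the levels did not overlap between these leading mRNAs and the next, Hop (1068 and 1384 TPM) and Droj2 (1051 and 1315 TPM) followed and differed from each other by less than the replicates did. Hsp60A came next with 704 and 519 TPM, a range that DnaJ-1 (394 and 659 TPM) and Hsc70Cb (487 and 576 TPM) overlapped. Hsc70-5 was at 478 and 463 TPM in the inputs, and stv was lowest with 159 and 265 TPM. The 9 together took 2.17% and 1.36% of gene counts in polysomes 1 and 3, and 2.03% and 2.02% in inputs 1 and 3. Polysome 3 held the smallest share, and polysome 1 the largest. These shares do not use the TMM factors. In TMM-scaled CPM the 9 summed to 19942 and 12665 in polysomes 1 and 3 and to 21001 and 22902 in inputs 1 and 3. On that scale polysome 1 lay below both inputs.

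Hsp83, the fly Hsp90, had 4858 and 3359 CPM in polysomes 1 and 3, against 5939 and 6809 CPM in inputs 1 and 3. The groups did not overlap. The log2 fold change was -0.63 ± 0.40 (SE, n = 2 libraries a fraction; edgeR adjusted p = 0.956). Its adaptor Hop had 1245 and 786 CPM in the polysomes and 1426 and 1795 CPM in the inputs, also without overlap (-0.66 ± 0.42, edgeR adjusted p = 0.956). Both mRNAs were closer to input in polysome 1, at 0.818 and 0.873 times the CPM of input 1, than in polysome 3, at 0.493 and 0.438 times that of input 3. Hop was at -0.98 without polysome 1 and -0.39 without polysome 3, and Hsp83 at -0.87 and -0.41. The annotation used here, which is not the one the counts were made with, shows Hsp83 sharing 15 exon bases with CG14966 on the opposite strand. With unstranded counts, which drop reads that touch both genes, the fold change of Hsp83 was -0.50. The part of the overlap in that shift was not tested.

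Hsc70-4, the cytosolic Hsp70 made in all cells, stood closest to input among the cytosolic members. It was at 8181 and 5152 CPM in polysomes 1 and 3 and at 7765 and 7680.4 CPM in inputs 1 and 3, so the polysome libraries lay on either side of the inputs (-0.21 ± 0.40, edgeR adjusted p = 1.00). Without polysome 3 the fold change was 0.07 and without polysome 1 it was -0.53.

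The partners that drive and reset the Hsc70 cycle had fitted fold changes below that of Hsc70-4. No test run here could find that difference. The exact permutation test of the ratios given further on cannot go below p = 0.3333. Hsc70Cb, the Hsp110-type exchange factor, had 920.4 and 698 CPM in polysomes 1 and 3 and 1205 and 1386 CPM in inputs 1 and 3. Both polysome values were below both input values (-0.68 ± 0.40, edgeR adjusted p = 0.956). DnaJ-1, a heat-inducible J-domain protein gene, had 450.2 and 420.4 CPM in the polysomes and 562 and 913 CPM in the inputs. Here the polysome libraries were close to each other and the inputs far apart, and the fold change of -0.76 ± 0.42 (edgeR adjusted p = 0.956) was -0.37 without input 3 and -1.07 without input 1. Droj2, the other J-domain protein gene, had 1597 and 1076 CPM in the polysomes and 1646 and 2001 CPM in the inputs. Its polysome values did not overlap the inputs, but polysome 1 was at 0.970 times input 1, a gap smaller than that between the inputs (-0.45 ± 0.41, edgeR adjusted p = 0.996). Droj2 was at -0.71 without polysome 1, -0.21 without polysome 3 and -0.30 without input 3.

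The BAG-domain gene stv varied most among the members. It was at 466 CPM in polysome 1 and 142 CPM in polysome 3, against 386 and 624 CPM in inputs 1 and 3. Polysome 1 lay between the inputs, and polysome 3 was 0.304 times polysome 1. The fold change was -0.73 ± 0.59 (edgeR adjusted p = 0.977). Without polysome 1, where polysome 3 stands alone and is assumed to vary like the inputs, stv was the only member called, at -1.78 (edgeR adjusted p = 0.0203), in a fit that called 7.24% of all genes. Its adjusted p over the 11 alternatives ran between 0.0203 and 1.00. Without polysome 3 it was at -0.13. It was at -1.04 without input 1 and -0.34 without input 3.

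In neither mitochondrial member did the polysome libraries separate from the inputs. Hsc70-5, the matrix Hsp70, had 909 and 449 CPM in polysomes 1 and 3 and 921 and 867 CPM in inputs 1 and 3 (-0.40 ± 0.46, edgeR adjusted p = 1.00). Polysome 1 lay between the inputs, and polysome 3 was at 0.517 times input 3. Hsp60A, the chaperonin, had 1316 and 582 CPM in the polysomes and 1152 and 825 CPM in the inputs (-0.06 ± 0.49, edgeR adjusted p = 1.00). The polysome libraries enclosed the inputs, and the direction turned with the library left out. Without polysome 3 Hsp60A was at 0.39 and Hsc70-5 at 0.01, without polysome 1 they were at -0.71 and -0.94, and without input 1 Hsp60A was at 0.20.

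**Figure D2:**
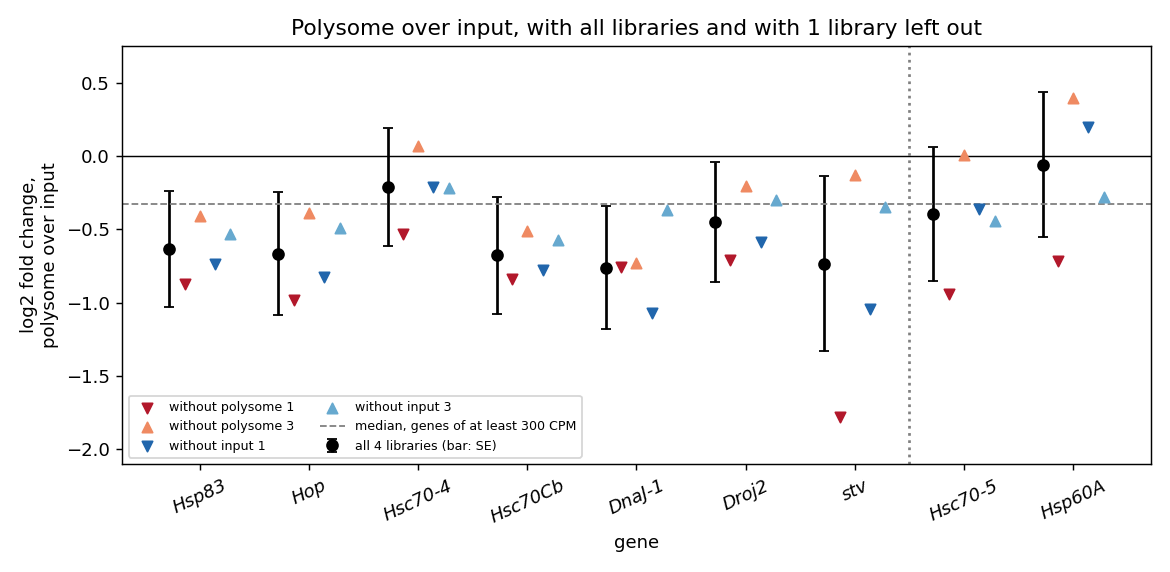
Fitted log2 fold change of polysome over input for each gene with all 4 libraries (black, bar: SE) and with 1 library left out (triangles), cytosolic genes left of the dotted line; the dashed line is the median of -0.33 over the 524 genes with at least 300 CPM. Without polysome 3 the values of Hsc70-4, Hsc70-5 and Hsp60A lie above 0, and stv moves the furthest, to -1.78 without polysome 1.

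Cytosolic and mitochondrial members were compared by their summed TPM in each library. The cytosolic sum was 7.75 and 11.1 times the mitochondrial sum in polysomes 1 and 3, and 8.91 and 12.4 times in inputs 1 and 3. The ratio was lower in the polysome library of each number than in the input of the same number, by 0.20 on the log2 scale for number 1 and by 0.17 for number 3, while libraries numbered 3 stood above those numbered 1 in both fractions. The groups overlapped, and the mean difference of -0.18 (exact permutation p = 0.667, two-sided) was smaller than the spread between replicates. With 2 libraries against 2 the smallest p this test allows is 0.3333. The difference was -0.12 without Hsp83 and -0.35 without Hsc70-4 in the cytosolic sum, with overlap in both cases. Both sums were lowest in polysome 3, at 7686 TPM for the cytosolic and 695 TPM for the mitochondrial members, against 12326 and 1590.5 TPM in polysome 1. In TPM the inputs lay between these values, at 10529 and 12195 TPM for the cytosolic and 1181 and 982 TPM for the mitochondrial members. In TMM-scaled CPM, the scale that compares libraries, the cytosolic order differed. The cytosolic sums were 17718 and 11634 CPM in polysomes 1 and 3 and 18928 and 21209 CPM in inputs 1 and 3. There both polysome libraries lay below both inputs. The mitochondrial sums were 2225 and 1031 CPM against 2073 and 1693 CPM, with the inputs between the polysomes.

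Ratios between partners within a library do not depend on library scaling. There were 14 such comparisons, the 3 above included, most of them chosen after the levels had been seen, and 6 had both polysome libraries above both inputs. Hsc70-4 is the numerator in 5 of these 6, so they are not independent. Its ratio was above in both polysome libraries for 5 of the 7 members it was set against, which left out Hsp60A. The same held for 11.4% of all tested genes and 14.0% of those with at least 300 CPM. Hsp60A in polysomes 1 and 3 was at 1.14 and 0.705 times the CPM of the input of the same number. Hsc70-4 was at 1.05 and 0.671 times, so its ratio to Hsp60A was lower, not higher, in the polysome library of each number. Hsc70-4 stood above Hsp83 by 1.84 and 1.67 times in polysomes 1 and 3 and by 1.43 and 1.23 times in inputs 1 and 3. Over Hop, the ratio of Hsc70-4 was 4.89 and 4.88 in the polysomes and 4.06 and 3.19 in the inputs, over Hsc70Cb it was 12.3 and 10.2 against 8.90 and 7.65, and over Droj2 it was 4.48 and 4.18 against 4.12 and 3.35. The ratio of Hsp83 to Hop was 2.67 and 2.92 in the polysomes and 2.85 and 2.59 in the inputs, which overlap. That of Hsc70-4 to DnaJ-1 was 14.5 and 9.75 against 11.0 and 6.69, and that to stv 23.7 and 49.2 against 27.2 and 16.6, both with overlap. In mitochondria, Hsp60A was at 1.71 and 1.53 times Hsc70-5 in the polysomes and 1.47 and 1.12 times in the inputs. Hsc70-4 was at 9.69 and 12.3 times Hsc70-5, its mitochondrial relative, in the polysomes and at 9.07 and 9.53 times in the inputs. For ratios without overlap the exact permutation p was 0.3333, the smallest possible, and 0.718 after adjustment over the 14.

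**Figure D3:**
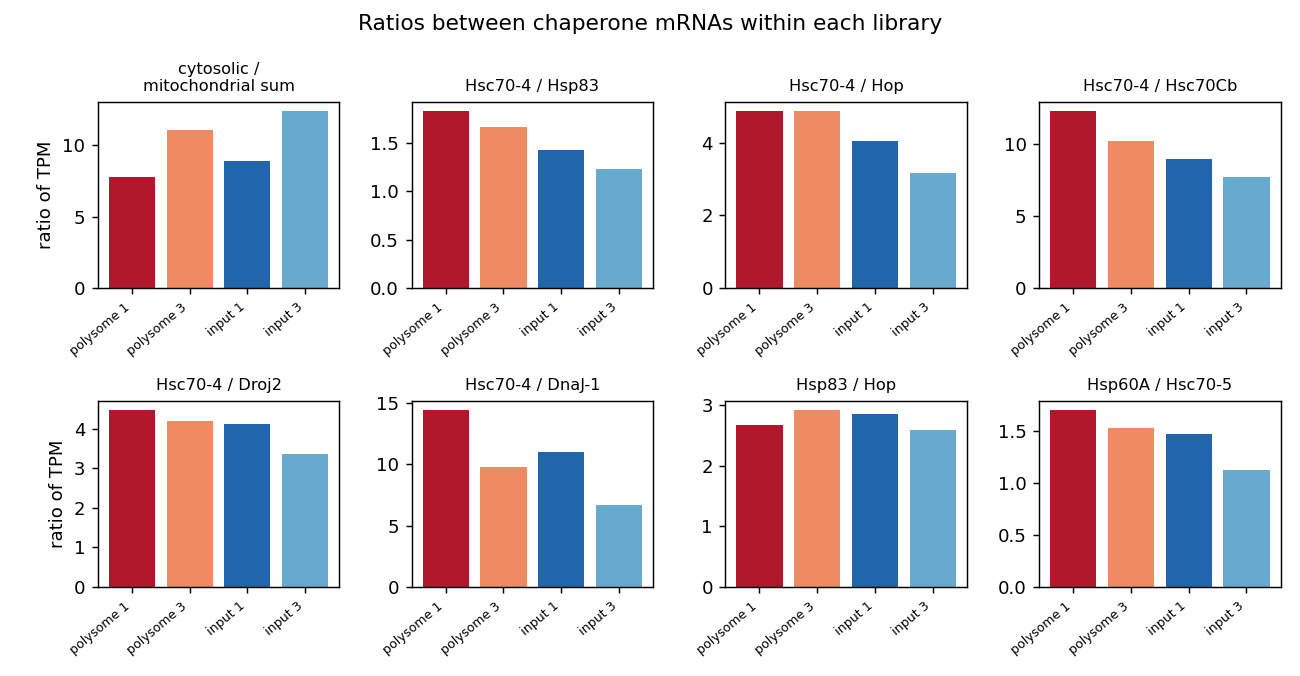
Ratios of TPM within each library (bars start at 0), polysome 1 and 3 left of input 1 and 3; the first panel divides the summed TPM of 7 cytosolic genes by that of 2 mitochondrial genes. Hsc70-4 over Hsp83, Hop, Hsc70Cb and Droj2 is higher in both polysome bars than in both input bars, while Hsp83 over Hop stays between 2.59 and 2.92.

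Translational efficiency, defined by the study as the log2 ratio of polysome to input TPM with 1 added to each, differed between the replicate numbers. In replicate 1 it was 0.39 for Hsc70-4, 0.51 for Hsp60A and 0.59 for stv, above the median of 0.32 over all tested genes, and it was between -0.07 for Hsc70Cb and 0.30 for Hsc70-5 for the other 6. In replicate 3 all 9 were below 0, from -0.30 for Hsp60A to -1.93 for stv, against a median of 0.09 over all tested genes. The median of the members was thus 0.28 in replicate 1, close to that of all genes, and -0.79 in replicate 3. Averaged over both replicates the efficiency was -0.40 ± 0.42 (SE, n = 2) for Hsp83, 0.01 ± 0.39 for Hsc70-4 and 0.10 ± 0.41 for Hsp60A. Such averages are not centred on the medians of all tested genes, 0.32 and 0.09 in replicates 1 and 3. An efficiency of 0 therefore does not mark a typical gene. For stv the average was -0.67 ± 1.26. The error exceeded the size of the average for 7 of the 9, all but Hsc70Cb (-0.43 ± 0.36) and DnaJ-1 (-0.46 ± 0.46).

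The inputs themselves differed in several cytosolic members. Input 3 was at 1.63 times input 1 for DnaJ-1, 1.62 times for stv, 1.26 times for Hop, 1.22 times for Droj2 and 1.15 times for Hsc70Cb and Hsp83, while Hsc70-4 was at 0.989 times. Both mitochondrial members were lower in input 3, at 0.941 times for Hsc70-5 and 0.716 times for Hsp60A. Thus 6 of 7 cytosolic and 0 of 2 mitochondrial members were higher in input 3, where 53.1% of all tested genes were. Of the 11 tested heat-induced Hsp70 and small Hsp genes 9 were higher in input 3. The most abundant of them were close in both inputs, Hsp23 at 0.979 times and Hsp26 at 0.879 times in input 3, and Hsp27 and Hsp68 were at 1.09 and 1.21 times. The low Hsp70 copies differed most, with Hsp70Aa at 5.26 times and Hsp70Ab at 5.65 times, though these copies are nearly identical and reads that map to several places were not counted. Muscle sheath markers were likewise higher in input 3 for 9 of 10 genes (Mhc at 2.07, bt at 3.66 and sls at 4.23 times), and bam, which the flies also carry as a heat-inducible transgene, was at 2.58 times. Their part in the chaperone values was not tested. As each input is a single library, this difference has no test.

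The wider Hsp90 and Hsc70 machinery of the cytosol lay on both sides of 0. It was less abundant than the 9 members. Its median level was 72.9 and 90.8 CPM in polysomes 1 and 3 and 73.9 and 92.8 CPM in inputs 1 and 3. For the members the medians were 1245 and 698 CPM against 1205 and 1386 CPM. A fold change below 0 was commoner among abundant genes (77.9% at 300 CPM or more) than among all tested genes (50.2%). The part of abundance in the contrast with the members was not tested. Of 21 other tested genes 7 were higher and 14 lower in polysomes, 0 passed the test in either direction (edgeR, 0 also at an unadjusted p under 0.05), and the median log2 fold change was -0.16, with polysome 3 the lowest library for 9 and the highest for 6. The lower ones with the smallest p were the J-domain protein gene CG5001 (-0.72 ± 0.51), HIP-R, an Hsc70-interacting protein gene with a close copy in HIP (-0.57 ± 0.43), and Hsf, the heat shock transcription factor (-0.44 ± 0.37). The higher ones were CG7133 (0.58 ± 0.47), DnaJ-H (0.35 ± 0.42) and STUB1, a ubiquitin ligase that binds Hsp70 and Hsp90 (0.34 ± 0.44). By edgeR their adjusted p lay between 0.969 and 1.00. The Hsp90 cochaperone p23, named after its values were seen, had 644 and 1193 CPM in polysomes 1 and 3 and 795 and 1060.4 CPM in the inputs (-0.01 ± 0.45, edgeR adjusted p = 1.00). Polysome 1 was its lowest library, at 0.809 times input 1 where Hsp83 was at 0.818 times, and polysome 3 its highest. The ratio of p23 to Hsp83 was 0.939 there, against 0.350 in polysome 1 and 0.354 and 0.412 in the inputs, and the fractions overlapped (exact permutation p = 1.0).

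In mitochondria the other folding and protease genes split evenly. Of 12 genes 8 had enough counts for the test, 4 were higher and 4 lower, 0 were called (edgeR, 0 also at an unadjusted p under 0.05), and the median was 0.01. The J-domain protein gene l(2)tid (0.83 ± 0.47), the protease subunit gene ClpP (0.48 ± 0.39) and the protease gene HtrA2 (0.42 ± 0.56) were the higher ones with the smallest p. ClpX, the unfoldase partner of ClpP (-0.73 ± 0.38), the protease gene Lon (-0.58 ± 0.38) and Hsp10 (-0.28 ± 0.40) were the lower ones. By edgeR their adjusted p lay between 0.956 and 1.00. Hsp10, the partner of Hsp60A, was at 534 and 458 CPM in the polysomes and 524 and 677 CPM in the inputs. Its ratio to Hsp60A in TPM was 1.69 and 3.29 in polysomes 1 and 3 and 1.90 and 3.43 in inputs 1 and 3, so the numbers separated and the fractions overlapped. The paralogs Hsp60B and Hsp60D and the second Hsp10-like gene CG9920 had 0 counts in all libraries, which allows up to 3 counts in each, and Hsp60C had at most 1.61 CPM, against 582 CPM or more for Hsp60A.

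All 11 tested heat-induced Hsp70 and small Hsp genes had a negative fold change, with a median of -0.91. A fold change below 0 was found for 50.2% of all tested genes and 77.9% of those with at least 300 CPM. By edgeR 0 of the 11 were called, against 0% of all tested genes. An unadjusted p under 0.05 was found for 2 of them, Hsp70Aa and Hsp70Bb, against 4.68% of all tested genes. The Hsp70 copies are nearly identical and reads that map to several places were not counted, so these 2 are not independent. The lower ones with the smallest p were Hsp70Aa (-2.0002 ± 0.82), Hsp70Bb (-1.42 ± 0.60) and Hsp70Bc (-1.16 ± 0.54), all with an edgeR adjusted p of 0.956. The list of 14 genes, untested ones included, summed to 22841 and 9241 CPM in polysomes 1 and 3 and 29109 and 29848 CPM in inputs 1 and 3, the same order of libraries that Hsp83 followed.

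**Figure D4:**
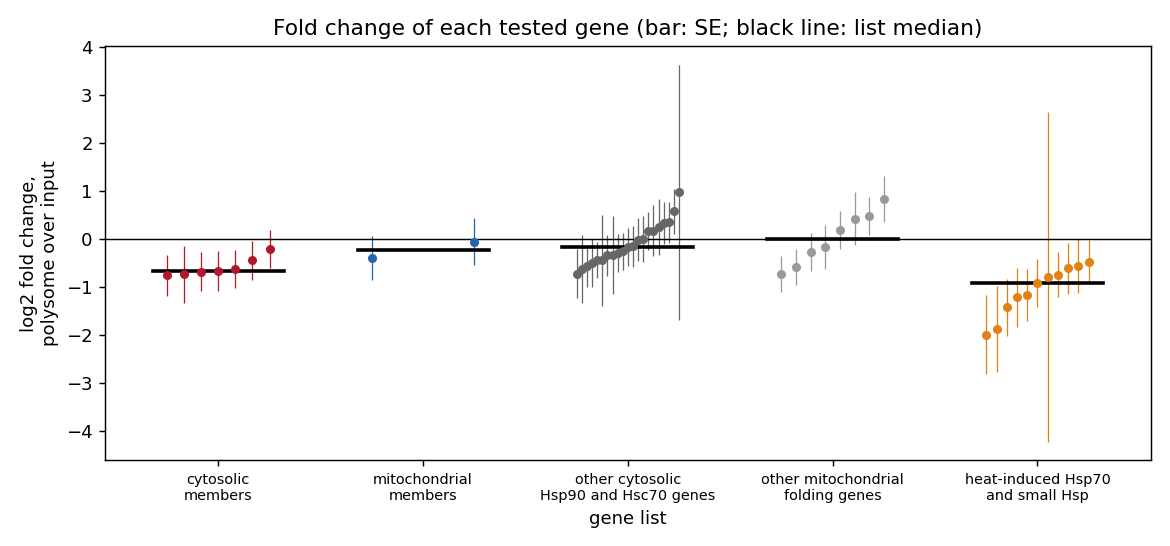
Fitted log2 fold change of polysome over input (points, bar: SE) of each tested gene in 5 lists, with the list median as a black line. The 7 cytosolic members have a median of -0.66 and the heat-induced genes -0.91, all below 0, while the other cytosolic and mitochondrial genes lie on both sides of 0 with medians of -0.16 and 0.01. The lists are not matched for abundance, and the other cytosolic and mitochondrial genes have lower median CPM than the members.

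Likeness was measured as the distance between log2(CPM + 1) profiles centred on each gene's mean, over 4 libraries, among 9038 genes. To Hsp83 the closest genes were CG7879 (0.093), lncRNA:CR44281 (0.096) and Sema5c (0.099), and Hsc70Cb came next at rank 4 (0.101), with Hop at rank 13 (0.138) and Droj2 at rank 42 (0.197). The remaining members were further off, Hsc70-5 at rank 362, Hsc70-4 at 393, DnaJ-1 at 472, Hsp60A at 2108 and stv at 2855. To Hsp60A the closest genes were Treh (0.059), CG42369 (0.063) and Tsp3A (0.076), and the nearest member was Hsc70-5 at rank 291 (0.445). Thus 3 cytosolic members, Hsc70Cb, Hop and Droj2, were among the 42 genes nearest to Hsp83. Hsp60A was nearer to Hsc70-5 than to any cytosolic member, but cytosolic Hsc70-4 was little further from it (0.496). Hsc70-5 was in turn slightly nearer to cytosolic Hsp83 (0.432) than to Hsp60A (0.445), so the distances did not sort the members by compartment. With 4 libraries of which 1 stands apart, these distances are a description only.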

How the data were processed

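Per the submitters' processing notes, reads were mapped to dm6 with STAR 2.6.1c, and the authors deposited the resulting counts of uniquely mapped reads for each gene, without normalization. RNA was poly(A) selected, fragmented for 13 min and made into directional libraries. The strand column used held 95.3% to 97.1% of strand-assigned counts. Reads that named no gene (10.8% to 42.6% of reads) were left out. Groups came from the labels, with polysome against input as the contrast. Whether libraries of one fraction came from separate fly cultures is not given in the sources used here, so the spread behind each p-value may be technical.

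The contrast was fitted over all genes in edgeR 4.0.16 (R 4.3.3; quasi-likelihood, TMM factors, filterByExpr, Benjamini-Hochberg adjustment, called under 0.05), and SE was computed from the test statistic. All 9 members passed the filter. TPM used summed exon lengths of BDGP6.54 (Ensembl release 115, dm6 coordinates), which held 17561 of 17699 identifiers. Translational efficiency set each polysome library against the input of its own number. On simulated counts the fit recovered the changed genes at a small spread. It called none of them at the common spread of these libraries, which was set alike for every gene.

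The members and gene lists were chosen with earlier results of these data known. Named were all members and, per direction in each other list of folding or heat-induced genes, up to 3 genes with the smallest p. Marker genes and some further genes, such as Hsp23, Mhc and p23, were named outside that rule. Of the list symbols 2 matched no gene in the files. Other settings tried were no filter, DESeq2 1.42.0, factors by upper quartile or RLE, 50 counts in 2 libraries, unstranded counts, a replicate block, each library left out, other lengths and pseudocounts. Sequences are not analysed here.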

Additional observations from a re-analysis of the deposited data

Results flagged for a closer look

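Reads on the strand opposite to Hsc70Cb, which no comparison used, made up 0.527% and 0.264% of its strand-assigned reads in polysomes 1 and 3 (103 and 45 reads), against 0% and 0.106% in inputs 1 and 3 (0 and 16 reads). The share was above that of both inputs in both polysome libraries, and it stayed below the 2.91% to 4.74% found over all genes.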

How the results depend on the processing

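Over all genes 0 were called as reported, against 41 by DESeq2, 104 with no filter, 47 with the replicate block and 0 to 695 with 1 library left out (8 without input 1, 0 without input 3, 695 without polysome 1, 53 without polysome 3). Members called numbered 0 to 1 with 1 library left out, and 0 in all other fits. The study speaks of corresponding input lysates, but deviations of equally numbered polysome and input libraries correlated at only r = -0.03 over 9038 genes, so whether the numbers pair them is not settled by these data. The replicate block changed no member's call, with a cytosolic median of -0.69 and a mitochondrial median of -0.32. Of 99 member fold changes over 11 alternative fits, 94 kept their direction and side of the threshold, 1 was newly called (stv at -1.78 without polysome 1) and 4 turned. With 1 library left out Hsc70-4 ran between -0.53 and 0.065, Hsc70-5 between -0.94 and 0.0051 and Hsp60A between -0.71 and 0.39, each lowest without polysome 1 and highest without polysome 3, and Hsp60A was at 0.20 without input 1. The cause was not tested. With 1 library left out the cytosolic median ran from -0.84 to -0.37 and the mitochondrial median from -0.83 (without polysome 1) to 0.20 (without polysome 3). Efficiency of the members had a median of -0.40, or -0.79 without replicate 1 and 0.28 without replicate 3, and -0.28 with unstranded counts. Medians over all 9, counts below 0, the 300 CPM limit and the ratio of Hsc70-4 to every gene were added after seeing the data. The ratio of cytosolic to mitochondrial sums stayed between -0.35 and -0.12 in all alternatives, at -0.18 with the replicate block. The promoter motif search was not run, since sequences were not used here. Counting error was at most 1.70% of a member's value, far below the spread between libraries of a fraction, and polysomes 1 and 3 differed enough that leaving out either changed calls over all genes.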

Other observations

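The gap between the unstranded and the strand-specific count differed between libraries for 2 members. For Hsp83 the unstranded count was lower than the strand-specific count by 2.16% and 13.0% in polysomes 1 and 3, and by 9.98% and 21.6% in inputs 1 and 3. For Hsc70-5 it was lower by 2.13% and 6.82% in the polysomes and by 6.15% and 16.4% in the inputs. The annotation used here shows no gene overlapping Hsc70-5. That annotation held 17561 of the 17699 identifiers, so it is not the one the counts were made with, whose overlaps were not seen. For the other 7 members the counts differed by under 0.5% in every library. The order of libraries was the same for both genes, with polysome 1 losing least and input 3 most, and its cause was not tested in either gene.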
